A study of Rattus norvegicus with 39 samples.

Results

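The genes described here are 10 interferon-stimulated genes of rat liver: Ifit1, Ifit2, Ifit3, Oasl, Ifih1, Irf1, Irf7, Mx1, Cmpk2 and Stat2. They were chosen by name, as the probe sets whose platform gene symbol was one of the 10, out of 23409 probe sets of coding genes that name 18896 genes. Each name had 1 probe set, so no choice between probe sets was needed, and all 10 were among the 11704 probe sets variable enough to be tested. Livers came from male Wistar rats of 5 to 6 weeks. In 12 rats the blood supply of the left and median lobes, 70% of the liver, was closed for 30 minutes under isoflurane, and 3 rats each were then killed without reperfusion (0 hr) or after 0.5, 2 or 6 hr of it. The study chose these rats at random for the arrays from larger groups. Both regions of these rats were measured, the left and median lobes combined (reperfused lobes) and the right lobe, whose blood flow was kept (non-ischemic lobe). Sham rats, 3 for each time, had the surgery without ischemia, and 3 rats were not operated on, which gives 13 groups and 39 Affymetrix Rat Transcriptome 1.0 arrays. The non-ischemic lobe shares its animal, and so its blood, anesthesia and surgery, with the reperfused lobes, and the sources used here do not say which lobe of a sham liver was taken.

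Type I interferons signal through the receptor Ifnar and the kinases Jak1 and Tyk2 to a complex with Stat2 and Irf9, which binds interferon-stimulated response elements in the promoters of antiviral genes. Interferon gamma acts through gamma-activated sites, a known route to Irf1. In the liver, hepatocytes, Kupffer cells and sinusoidal endothelial cells all carry interferon receptors, and basal transcription of such genes is known in animals without infection.

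On the deposited scale, where all arrays were normalized together, the median intensity per array was 39.6 to 43.6. No pair of arrays was identical. Of 6 hepatocyte markers, Alb and Ahsg read 19.84 to 19.93 on the log2 scale, at its upper end, so a sum of these markers says little, and Cps1, the 1 variable enough to be tested, ran from 18.38 to 19.42 and was lower in the reperfused lobes at 6 hr (-0.39 against the pooled shams). Against the shams of 6 hr, Cps1 did not pass. Markers of Kupffer cells and macrophages summed to 14.29 to 16.14 on the log2 scale. The 5 markers of plasmacytoid dendritic cells, the cells best known for making type I interferon, summed to 6.93 to 7.51, and the highest value of Siglech was 5.93. The 8 interferon genes with a probe set, Ifnb1, Ifng, Ifna2, Ifna4, Ifnl1, Ifnl3, Ifnk and Ifne, lay between 3.14 and 4.99 on all 39 arrays, and none varied enough to enter a test. In these bulk samples, fewer cells of a type and less RNA per cell cannot be told apart.

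The 3 Ifit genes lie together on rat chromosome 1 (RefSeq, build GRCr8), with Ifit2 at 241515735 to 241521799, Ifit3 at 241527326 to 241532469 and Ifit1 at 241565197 to 241567262. Irf7 is on the same chromosome at 205796956 to 205800543. The others are on chromosome 3 (Ifih1, 67635924 to 67683968), 6 (Cmpk2, 48802150 to 48813652), 7 (Stat2, 1287025 to 1302858), 10 (Irf1, 38417935 to 38424946), 11 (Mx1, 50269056 to 50294699) and 12 (Oasl, 47343551 to 47356509). RefSeq promoters were at hand for 8 of the 10, not for Ifit1 and Ifit2. In the 250 bases before each start, both strands were searched for GAAANNGAA, the core of an interferon-stimulated response element, and for TTCNNNGAA, the core of a gamma-activated site. The motifs do not overlap in the stretches shown. The first was found in 4 of the 8 promoters and the second in 1, beside 7.99% and 7.52% of 27457 promoters of all genes. The stretches of 30 bases around the matches are printed from 5′ to 3′ along the gene, with the matches in capitals, so that the members with a match can be read beside their levels. A capital run that starts with TTC and ends with TTTC is the first motif on the opposite strand.
Ifit3, chr1:241527282-241527311, + strand: tTTCAGTTTCtagtttccacTTCCCTTTCa
Irf7, chr1:205800073-205800102, - strand: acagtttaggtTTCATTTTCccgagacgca
Ifih1, chr3:67684009-67684038, - strand: agaagagaatcGAAACAGAAaccgatgtgt
Cmpk2, chr6:48802748-48802777, + strand: ctgcatctgccTTCACTTTCgtttccaggg
Irf1, chr10:38417782-38417811, + strand: aacagcctgatTTCCCCGAAatgatgaggc
Ifit3 held 2 matches, which begin 43 and 24 bases before the start, Ifih1 1 at 59, Irf7 1 at 68 and Cmpk2 1 at 91 bases. The match of Irf1, at 142 bases, was of the gamma-activated kind. Oasl, Mx1 and Stat2 held neither motif in this window. The stretches of Irf7 and Cmpk2 lie inside the outer limits of the annotated gene, since other transcripts start farther upstream. A match is a description of letters and not a binding site.

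Levels differed widely in how much they varied. Ifit1, whose product binds viral RNA in humans and mice, spanned 10.7 log2 units over the 39 arrays, from 3.30 to 14.02. Irf7, the factor that amplifies interferon production, spanned 3.93, Oasl, a relative of the oligoadenylate synthetases, 3.78, and Mx1, an antiviral GTPase, 3.65. Ifit2, of the same family as Ifit1, spanned 3.37 and Irf1, a transcription factor, 3.34. Ifit3, whose product joins Ifit1 in humans (1.97), Ifih1, a sensor of double-stranded RNA also called Mda5 (1.86), Stat2 (1.72) and Cmpk2, a mitochondrial nucleotide kinase (1.11), had the smallest spans. When the 13 group means of a member were put in order, neighbours overlapped in their arrays in 12 of 12 steps for 8 members. The exceptions were Irf1, where the unoperated livers stood above the 6 hr non-ischemic lobes next to them, and Stat2, where they stood above the 0 hr reperfused lobes. The highest mean was at 2 hr of reperfusion for Ifit1, Irf1 and Irf7 (non-ischemic lobe) and for Ifit3, Oasl and Ifih1 (reperfused lobes). It was in the 0 hr reperfused lobes for Mx1 and Cmpk2, in the 0.5 hr reperfused lobes for Ifit2 and in the 6 hr reperfused lobes for Stat2. The lowest mean was in the 6 hr shams for Ifit2, Ifit3, Oasl, Irf7 and Mx1.

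**Figure D1:**
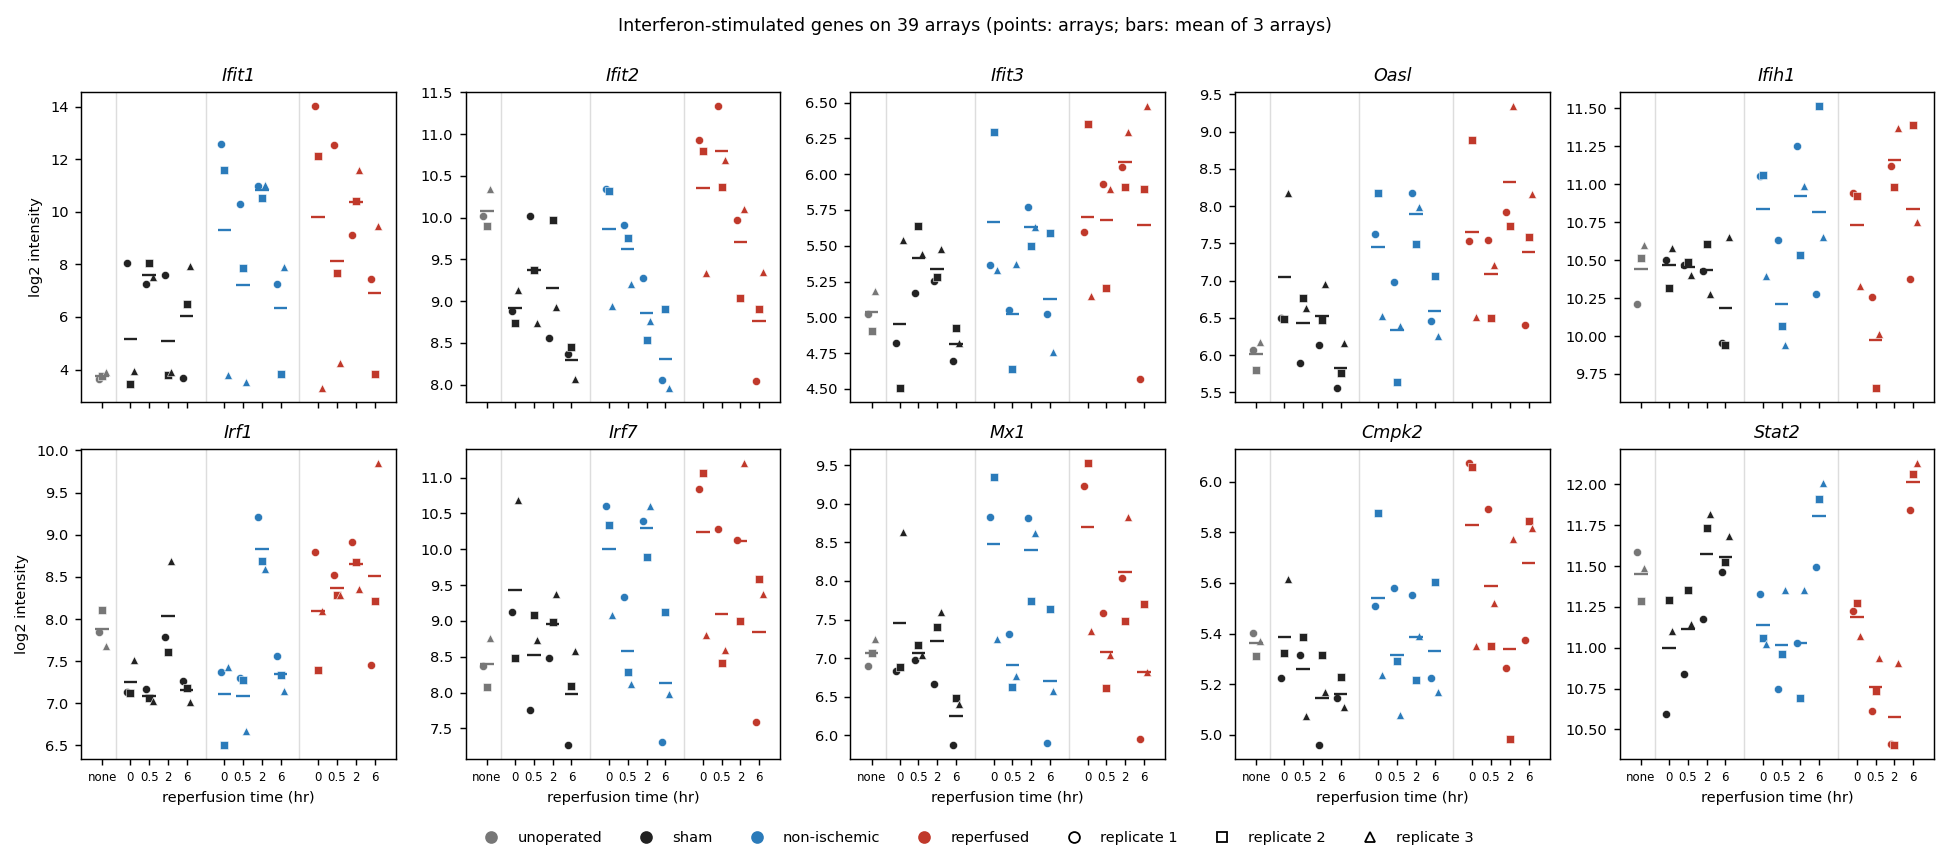
Log2 intensity (y) of the 10 genes on 39 arrays, by group and reperfusion time in hr (x; none: unoperated), with 1 point per array and a bar at the mean of 3 arrays. Ifit1 runs from 3.30 to 14.02 with nothing between 4.25 and 6.49, while Ifih1 and Stat2 stay within 1.86 and 1.72 units.

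Ifit1 took low or high values and none between. Its log2 values were at or under 4.25 on 14 arrays and at or over 6.49 on 25, and a gap of 2.24 lay between. A gap as wide, with at least 3 arrays on either side, was found in 11 of the 23409 probe sets. On the 14 low arrays, 4.19% to 33.33% of all probe sets lay under Ifit1, so the low values may be no more than background, and the deposited values carry no detection call. Less Ifit1 RNA and a probe set that does not read the Ifit1 RNA of some animals cannot be told apart here, so each difference given for Ifit1 is one of probe set signal. The low arrays were the 3 unoperated livers, 5 of the 12 shams, 3 of the 12 non-ischemic lobes and 3 of the 12 reperfused lobes. In the operated rats, the lobes of an animal always fell on the same side, low in 3 animals and high in 9. Animal 3 at 0 hr had 3.78 in its non-ischemic and 3.30 in its reperfused lobe, while animals 1 and 2 had 12.59 and 11.60 in the non-ischemic and 14.02 and 12.13 in the reperfused lobes. Animal 3 at 0.5 hr had 3.53 and 4.25, against 10.30 and 12.53 in animal 1 and 7.87 and 7.65 in animal 2. Animal 2 at 6 hr had 3.83 in both lobes, against 7.26 and 7.45 in animal 1 and 7.90 and 9.46 in animal 3. At 2 hr all 3 animals were high, with 10.97, 10.53 and 11.03 in the non-ischemic and 9.12, 10.42 and 11.59 in the reperfused lobes. Of the shams, replicates 2 and 3 at 0 hr, 2 and 3 at 2 hr and 1 at 6 hr were low, and the 3 shams at 0.5 hr had 7.24, 8.04 and 7.52.

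A low Ifit1 did not go with low values of the other members on every array. Sham replicate 3 at 0 hr had 3.96 for Ifit1, but 10.69 for Irf7, 8.63 for Mx1 and 8.18 for Oasl, each the highest value among the 12 shams. Animal 2 at 6 hr had the highest Ifih1 of all 39 arrays in its non-ischemic lobe (11.51) and 11.39 in the reperfused lobes. Its Mx1 values, 7.63 and 7.70, were the highest at 6 hr in either lobe. Animal 3 at 0 hr, low in Ifit1, was also lower than animals 1 and 2 in Irf7 and Mx1. Its Irf7 was 9.08 and 8.80, against 10.60 and 10.84 in animal 1 and 10.34 and 11.06 in animal 2. Its Mx1 was 7.25 and 7.36, against 8.83 and 9.23 in animal 1 and 9.35 and 9.52 in animal 2.

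**Figure D2:**
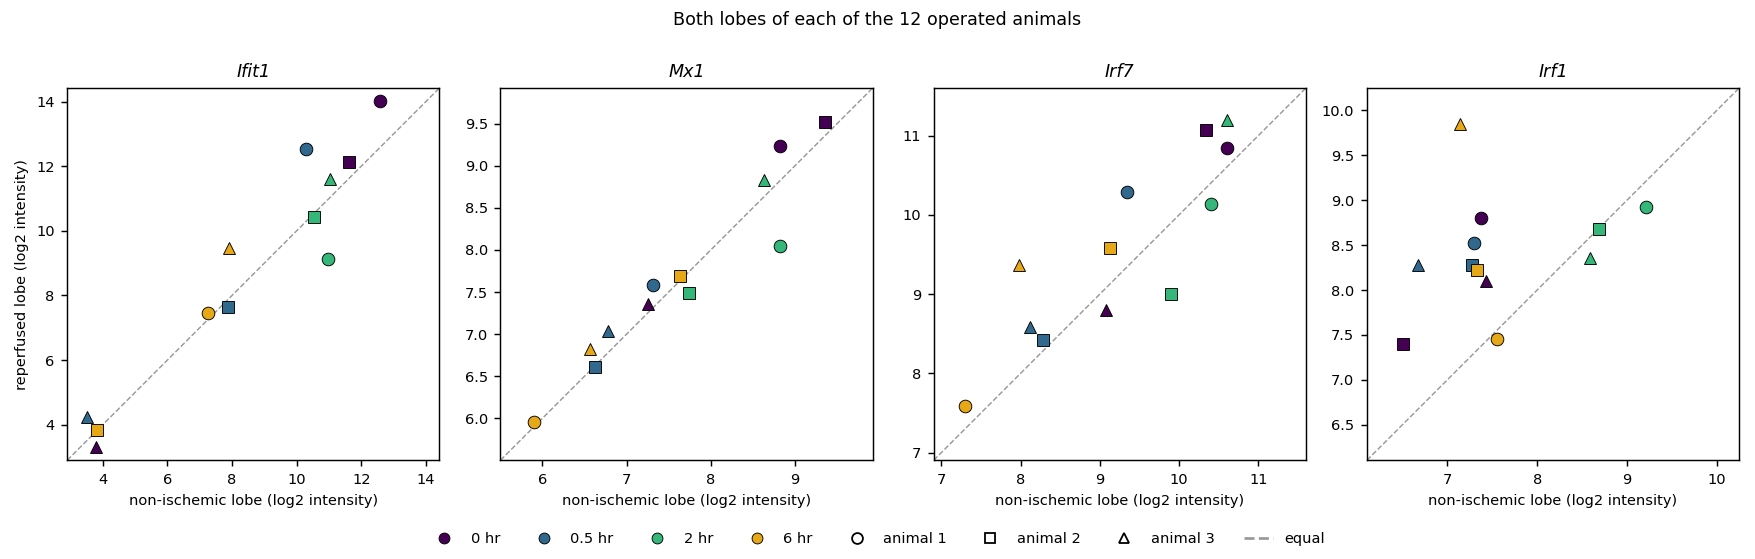
Log2 intensity in the reperfused lobes (y) against the non-ischemic lobe (x) of each of the 12 operated animals for Ifit1, Mx1, Irf7 and Irf1, with colors for reperfusion time, symbols for the animal and a broken line where both lobes are equal. Ifit1 and Mx1 lie along the line, on axes of unlike span, with lobe differences of up to 2.24 for Ifit1 and -0.78 for Mx1. Irf1 lies above the line at 0 and 0.5 hr and slightly under it at 2 hr.

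The spread between the lobes of an animal, beside that between animals, differed between members. The difference within an animal includes any between a reperfused and a non-ischemic lobe. For Ifit1, the lobes of an animal differed by 0.83 log2 units on average (12 animals), and the same lobe of different animals at 1 time by 3.94 (24 pairs), a ratio of 0.21. The ratio was 0.24 for Mx1, 0.41 for Ifih1, 0.49 for Irf7 and 0.65 for Oasl. It was 0.82 for Cmpk2, 0.90 for Ifit3, 0.91 for Stat2 and 1.02 for Ifit2. Irf1 was the member with the highest ratio, 1.54. Averaged over the 4 times, its lobes differed more within an animal than the same lobe did between animals. At 2 hr alone its lobe differences were small (-0.29, -0.01 and -0.23). The median over the 10 members was 0.74, near that of all tested probe sets, 0.78, and 8 of the 10 were under 1, as were 77.6% of all tested probe sets.

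Each lobe was compared with the 12 pooled shams at each time, with limma fitted to the arrays compared and p-values adjusted over the 11704 probe sets by the method of Benjamini and Hochberg (q-values, threshold 0.05). The 8 comparisons share these shams. At 0 hr, after ischemia and before blood flow returned, no member passed in the reperfused lobes, where 0% of all tested probe sets did. The differences were 3.84 for Ifit1 (standard error, SE, 1.67, q-value 0.305), 1.70 for Mx1 (SE 0.458, q-value 0.143), 1.51 for Irf7 (SE 0.543, q-value 0.235) and 1.42 for Ifit2 (SE 0.385, q-value 0.143) on the log2 scale. At an unadjusted p under 0.05 there were 8 members, as against 1757 of 11704 probe sets. Without replicate 3 of the reperfused lobes, the animal described above, 4 members passed, namely Ifit1 with a difference of 7.10, Mx1 with 2.38, Ifit2 with 1.93 and Cmpk2 with 0.83. That animal was described for its low Ifit1, Irf7 and Mx1, so this refit is no separate test. Leaving out any other array gave 0 calls of members. In the non-ischemic lobe at 0 hr no member passed either (0.0342% of probe sets did), with differences of 3.35 for Ifit1 and 1.48 for Mx1 (SE 0.448, q-value 0.215), and 8 members had an unadjusted p under 0.05, as against 1688 of 11704 probe sets.

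At 0.5 hr Ifit2 was the member that rose in the reperfused lobes, where 1.63% of probe sets passed, 1.27% higher. The 3 arrays read 11.34, 10.36 and 10.69, above each of the 12 shams, whose lowest, median and highest values were 8.07, 8.81 and 10.02. The difference was 1.86 (SE 0.346, q-value 0.00992), a 3.63-fold rise over the shams. Unoperated livers, which were not compared with these lobes, read 9.90 to 10.34. The lobe arrays lay wholly above the shams in 1.83% of probe sets. The call was lost without replicate 1 of the reperfused lobes (difference 1.59, q-value 0.118). Irf1 differed by 0.98 (SE 0.267, q-value 0.0712), and it passed without sham replicate 3 at 2 hr, the sham with the highest Irf1 (8.69), with 1.10 and a q-value of 0.00153. Ifih1 and Stat2 had negative differences, -0.41 (q-value 0.193) and -0.55 (q-value 0.188). No member passed in the non-ischemic lobes of that time (1.17% of probe sets did), none had an unadjusted p under 0.05 (2022 of 11704 probe sets did), and the median difference was -0.12. Pf4 and Gp9, platelet markers, were higher in the reperfused lobes, and no cell marker passed in the non-ischemic lobe. Against the shams of 0.5 hr, Pf4 and Gp9 did not pass. Marco (macrophages) was then higher in both lobes and Kdr (sinusoidal endothelium) in the reperfused lobes. The part of these cells was not tested.

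At 2 hr, 5 members rose and 1 fell in the reperfused lobes, where 12.8% of probe sets passed, 7.60% higher and 5.15% lower. Ifit1 was 9.12, 10.42 and 11.59, above all shams (3.44, 6.86 and 8.07 as lowest, median and highest), a difference of 4.40 (SE 1.10, q-value 0.0159). Ifih1 was 11.12, 10.98 and 11.37 against shams of 9.94, 10.45 and 10.65, a difference of 0.77 (SE 0.152, q-value 0.00375). Ifit3 was 6.05, 5.91 and 6.29 against 4.51, 5.21 and 5.64, a difference of 0.96 (SE 0.214, q-value 0.00903). These 3 did not overlap with the shams, as was so for 5.07% of probe sets. Oasl was 7.92, 7.73 and 9.34, and the sham with 8.18 lay among them. Its difference was 1.87 (SE 0.420, q-value 0.00911), a 3.66-fold rise. Irf1 was 8.92, 8.68 and 8.36, overlapping with 1 sham at 8.69, with a difference of 1.27 (SE 0.273, q-value 0.00693). Stat2, in contrast, fell by 0.74 (SE 0.218, q-value 0.0357), with 10.41, 10.40 and 10.91 against shams of 10.59, 11.32 and 11.82. Irf7 (1.39, q-value 0.0909) and Mx1 (1.12, q-value 0.0765) did not pass, and both did without sham replicate 3 at 0 hr (q-values 0.0268 and 0.0163). Without replicate 3 of the reperfused lobes 3 members passed, and the q-values of Ifit1 (0.0846), Ifit3 (0.0544) and Oasl (0.0753) were then above 0.05. The q-value of Ifit1 was also above it without replicate 2 (0.0669), that of Irf1 without replicate 1 (0.0577), and that of Stat2 without replicate 1 (0.166) or 2 (0.150) or without sham replicate 2 at 0.5 hr (0.05001) or at 6 hr (0.0505). Among the cell markers, Kdr (sinusoidal endothelium) and Lrat (stellate cells) were lower and Epcam (bile duct cells) higher in these lobes, and no marker of macrophages or neutrophils passed. Against the shams of 2 hr, Epcam was the only marker that passed in these lobes. The part of these cells in the result was not tested.

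In the non-ischemic lobe at 2 hr, 6 members rose and none fell, where 14.0% of probe sets passed, 8.09% higher. Ifit1 was 10.97, 10.53 and 11.03, a difference of 4.87 (SE 1.06, q-value 0.00941), and its arrays lay above all shams, as in 5.52% of probe sets. Irf1 was 9.21, 8.69 and 8.59, a difference of 1.45 (SE 0.276, q-value 0.00561). The shams with the highest mean Irf1 were those of 2 hr (8.03), and the difference from these alone, given below, was smaller. Irf7 was 10.40, 9.89 and 10.60 against shams of 7.27, 8.65 and 10.69, a difference of 1.58 (SE 0.470, q-value 0.0356). Mx1 was 8.82, 7.74 and 8.63 against 5.88, 6.93 and 8.63, a difference of 1.40 (SE 0.395, q-value 0.0288). Oasl was between 7.49 and 8.18 in the 3 lobes, a difference of 1.43 (SE 0.379, q-value 0.0220), and Ifih1 differed by 0.54 (SE 0.166, q-value 0.0401). The groups overlapped for Irf1, Irf7, Mx1, Oasl and Ifih1. Leaving out replicate 1 of the lobe left 1 member called, and leaving out replicate 2 or 3 left 2, with Irf1 called in all 3 cases. Ifih1 was also lost without sham replicate 2 at 0 hr or replicate 2 or 3 at 0.5 hr (q-values 0.0512 to 0.0573), and Irf7 without sham replicate 2 at 0 hr (0.0519). Ifit2 (-0.08) and Stat2 (-0.28, q-value 0.401) did not pass in this lobe. Kdr and Lrat were lower here as well and Ppbp, a platelet marker, higher, and their part was not tested. None of these passed against the shams of 2 hr.

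At 6 hr, 3 members rose in the reperfused lobes, where 29.3% of probe sets passed, 20.0% higher. Stat2 was 11.84, 12.07 and 12.13, above all shams, a difference of 0.70 (SE 0.212, q-value 0.0198), and 11.2% of probe sets lay wholly above the shams. Irf1 was 7.46, 8.22 and 9.85, a difference of 1.13 (SE 0.383, q-value 0.0359). Cmpk2 was 5.38, 5.84 and 5.82 against shams of 4.96, 5.22 and 5.61, a difference of 0.44 (SE 0.134, q-value 0.0207). Irf1 and Cmpk2 overlapped with the shams. All 3 calls were lost without replicate 2 or replicate 3, and the difference of Irf1 was 0.46 without replicate 3. Irf1 was also lost without sham replicate 2 at 0 hr or replicate 2 or 3 at 0.5 hr (q-values 0.0509 to 0.0512). Without replicate 1, 6 members passed, with Ifit3 (1.05), Oasl (1.42) and Ifih1 (0.68) joining, and Oasl joined without sham replicate 3 at 0 hr (1.08, q-value 0.0207). Ifit1 (0.94, q-value 0.604), Mx1 (-0.17) and Irf7 (0.12) did not pass. In the non-ischemic lobe at 6 hr no member passed (25.2% of probe sets did), and 1 member, Stat2, had an unadjusted p under 0.05 (0.49, SE 0.217, q-value 0.108), as against 4366 of 11704 probe sets. Without replicate 1 of that lobe, Ifih1 passed (0.70, q-value 0.0488). Of 6 neutrophil markers tested, 3 passed as higher in the reperfused and 4 in the non-ischemic lobes at 6 hr, set against the pooled shams, none passed in either lobe against the shams of 6 hr, and S100a8 and S100a9 were higher in those shams than in unoperated livers. Their summed level on the log2 scale was 8.11 to 9.40 and 7.99 to 9.28, against 7.62 to 8.09 in all shams and 7.99 to 8.09 in those of 6 hr, while Mpo was at most 3.98. Of 9 macrophage markers, Adgre1 was lower in both lobes at 6 hr and Vsig4 in the non-ischemic lobe, against the pooled shams. Stab2 (endothelium) and Lrat were lower in both lobes too, and Kdr was lower and Epcam higher (1.99) in the reperfused lobes. Against the shams of 6 hr, Stab2, Kdr, Vsig4 and Epcam passed in neither lobe, and Lrat was lower in both. Of the macrophage markers, Cd163 was then higher in the non-ischemic lobe. In the reperfused lobes Cd163 and Adgre1 passed, 1 higher and 1 lower. Stab2 and Lrat were also lower in the shams of 6 hr than in unoperated livers. The part of these cells in the levels of the members was not tested.

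**Figure D3:**
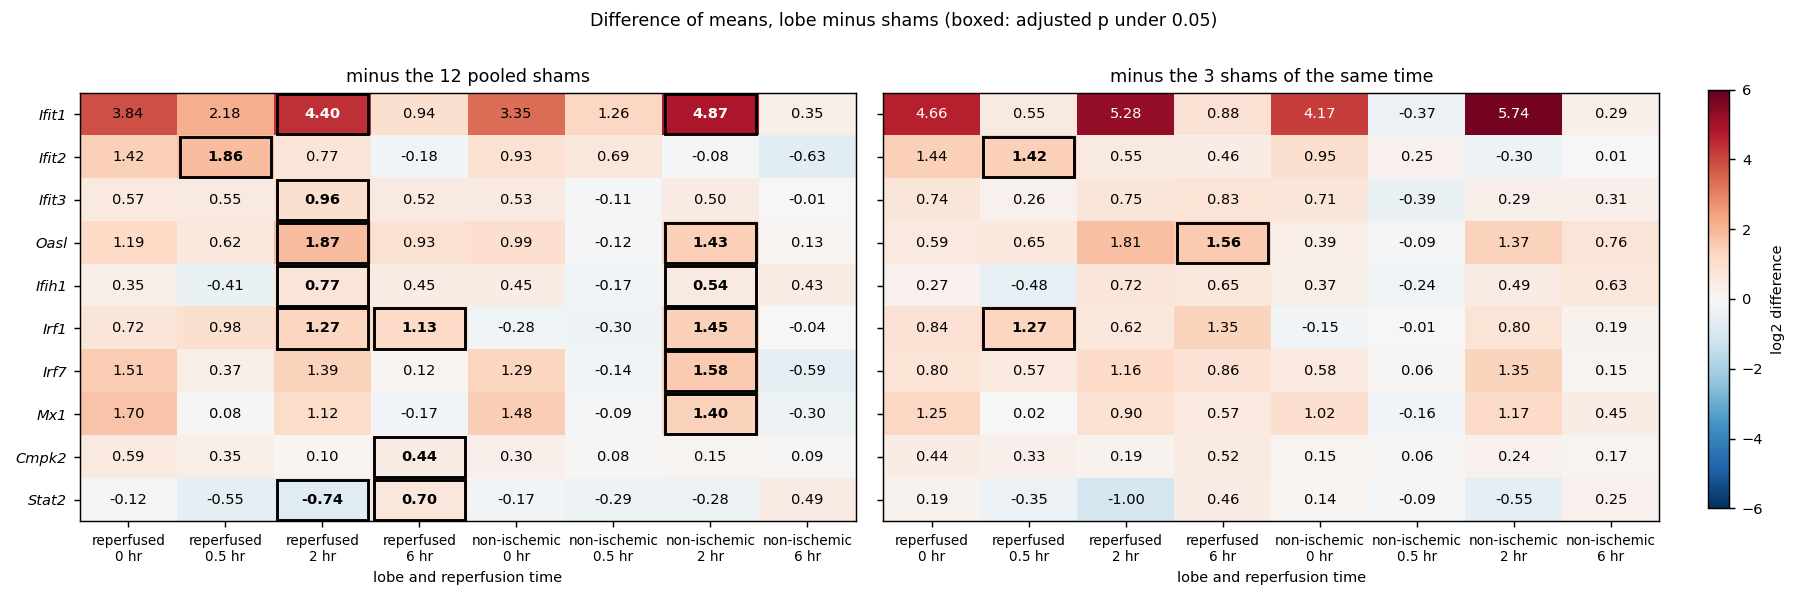
Log2 difference of the mean of 3 lobe arrays from the mean of the 12 pooled shams (left) and of the 3 shams of the same time (right) for 10 genes (rows), by lobe and reperfusion time in hr (columns), with red for higher, blue for lower and a box where the adjusted p is under 0.05. Most boxes stand at 2 hr on the left, and none stands at 2 hr on the right, where Ifit1 reads 5.28 and 5.74.

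Against the 3 shams of the same time, which also share the time since surgery, fewer members passed. At 0.5 hr Ifit2 (1.42, SE 0.353, q-value 0.0399) and Irf1 (1.27, SE 0.139, q-value 0.00203) rose in the reperfused lobes, where 5.38% of probe sets passed as higher and 6.06% as lower. Irf1 was 8.52, 8.28 and 8.28 there and 7.17, 7.06 and 7.03 in the shams, so that the groups were far apart. The arrays of 3 members did not overlap, those of Ifit2 and Irf1 being higher, as in 17.8% of probe sets, and those of Ifih1 lower (-0.48, q-value 0.119), as in 17.2%. The call of Irf1 remained when any 1 of the 6 arrays was left out (q-values up to 0.0236), and that of Ifit2 was lost without any 1 of them other than sham replicate 1.

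At 6 hr Oasl rose in the reperfused lobes (11.7% of probe sets passed as higher and 7.06% as lower), with 6.40, 7.58 and 8.16 against 5.56, 5.76 and 6.16, a difference of 1.56 (SE 0.425, q-value 0.0439). Its arrays and those of Irf1, Cmpk2 and Stat2 lay above the shams, as in 24.7% of probe sets. The call of Oasl was lost without reperfused replicate 2 or any of the 3 shams, and 4 members, with Ifit3, Irf1 and Cmpk2, passed without reperfused replicate 1. At 2 hr no member passed in the reperfused lobes (1.31% of probe sets passed as higher and 0.436% as lower) or in the non-ischemic lobe (0.00854% and 0%). Ifit1, Ifit3, Oasl and Ifih1 lay above the shams of 2 hr in the reperfused lobes without overlap, as 10.1% of probe sets did, and Stat2 lay below them (means 10.57 and 11.58, q-value 0.0833), as 12.3% did. Above them in the non-ischemic lobe lay Ifit1, Ifit3, Oasl, Irf7 and Mx1, as 9.79% of probe sets did. Irf1 overlapped with these shams in both lobes. Its differences were 0.62 (reperfused, SE 0.297, q-value 0.380) and 0.80 (non-ischemic, SE 0.304, q-value 0.369). The differences of Ifit1 there were 5.28 (reperfused, SE 1.04, q-value 0.0546) and 5.74 (non-ischemic, SE 0.908, q-value 0.161), and both passed without sham replicate 1, whose Ifit1 of 7.60 was the high one of the 3, with 6.53 (q-value 0.0211) and 6.99 (q-value 7.9e-05). Unadjusted p-values were under 0.05 for 6 members in the reperfused and 7 in the non-ischemic lobe at 2 hr, as against 1788 and 1412 of 11704 probe sets. At 0 hr no member passed in either lobe (0% of probe sets did), and Ifit2 lay above the shams in the reperfused lobes without overlap (1.44, q-value 0.527), as 9.62% of probe sets did. In the non-ischemic lobe no member passed after 0.5 hr (5.97% of probe sets passed as higher and 6.05% as lower) or after 6 hr (8.98% and 6.24%). Oasl lay above the 6 hr shams there without overlap (0.76, q-value 0.0743), as 22.3% of probe sets did, and passed without replicate 3 of the lobe (0.93, q-value 0.0444).

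Next, the 3 reperfused and 3 non-ischemic lobes of each time were set against each other, in a fit without the animal as a block. No member passed at 0 hr (0% of probe sets did), 0.5 hr (0.154%), 2 hr (0.111%) or 6 hr (0%). Irf1 came nearest, at 0.5 hr, with 8.52, 8.28 and 8.28 in the reperfused and 7.30, 7.27 and 6.67 in the non-ischemic lobes. Its difference was 1.28 (SE 0.200, q-value 0.108), and with the animal as a block it passed with the same difference and a q-value of 0.0248. Within the animals, Irf1 was higher in the reperfused lobes by 1.42, 0.89 and 0.67 at 0 hr and by 1.23, 1.01 and 1.61 at 0.5 hr. At 2 hr the values were -0.29, -0.01 and -0.23, and at 6 hr they were -0.10, 0.89 and 2.71. Ifit2 was higher in the reperfused lobes of all 9 animals at 0, 0.5 and 2 hr, by 0.39 to 1.48, and at 6 hr the differences were -0.02, -0.00 and 1.38. Stat2 was lower in the reperfused lobes by 0.13 to 0.42 at 0.5 hr and by 0.29 to 0.62 at 2 hr, and higher by 0.12 to 0.35 at 6 hr. The change of the lobe difference between times was tested on these differences within animals, and no member passed (0.709% of probe sets did). The lowest q-value was 0.163, for Stat2, and that of Irf1 was 0.447.

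**Figure D4:**
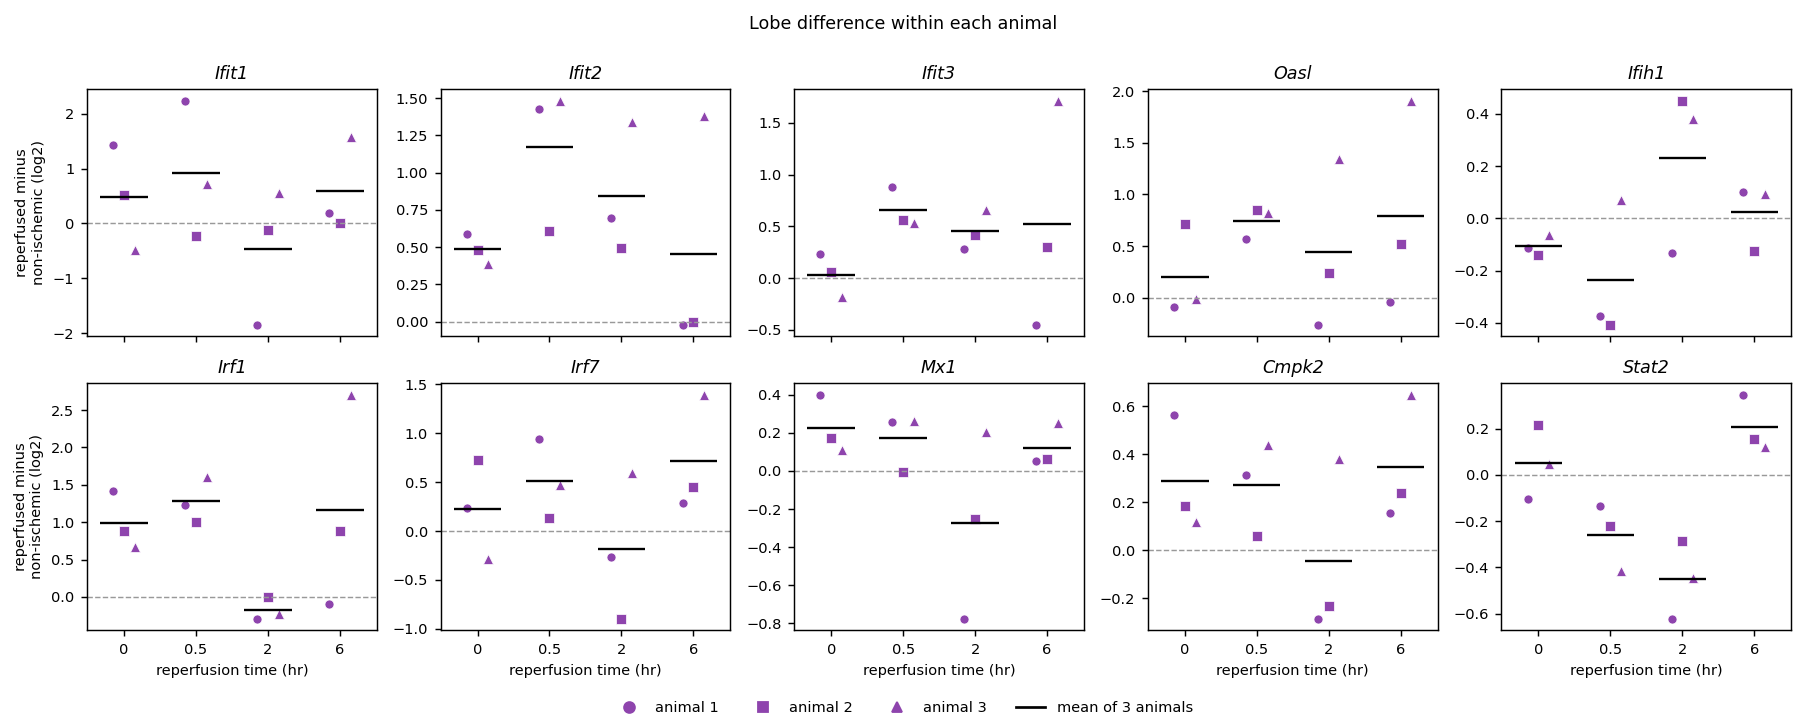
Log2 difference, reperfused minus non-ischemic lobe, of each animal (y) by reperfusion time in hr (x) for the 10 genes, with a symbol per animal and a bar at the mean of 3 animals. Irf1 is above 0 in all 3 animals at 0 and 0.5 hr and at -0.29, -0.01 and -0.23 at 2 hr, and Stat2 goes from under 0 at 2 hr to above 0 at 6 hr.

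The surgery was compared with no surgery, with the same 3 unoperated livers in each of 4 comparisons. Ifit2 had 10.02, 9.90 and 10.34 in unoperated livers and was lower in the shams of 0 hr (8.88, 8.74 and 9.14), by 1.17 (SE 0.168, q-value 0.0208), where 3.37% of probe sets passed, 2.22% lower. That call was lost without sham replicate 1 or any of the unoperated livers. At 6 hr Ifit2 was 8.37, 8.46 and 8.07 and fell by 1.79 (SE 0.161, q-value 0.000374), and the call remained without any 1 array. Irf1 fell by 0.73 (SE 0.146, q-value 0.0101) and Mx1 by 0.82 (SE 0.183, q-value 0.0157) at 6 hr as well, where 22.7% of probe sets passed, 12.3% lower, and Mx1 was lost without unoperated replicate 3 (q-value 0.0583). Ifit1 joined at 6 hr without sham replicate 1 (3.44, q-value 0.00195). At 0.5 hr Ifit1 rose by 3.83 (SE 0.206, q-value 0.00017), from 3.64, 3.75 and 3.91, all in the low range where background may set the value, to 7.24, 8.04 and 7.52, and Irf1 fell by 0.79 (SE 0.141, q-value 0.0209), where 7.48% of probe sets passed, 3.47% higher and 4.02% lower. When the spread was taken from all 39 arrays, where Ifit1 varies far more, its q-value was 0.364. At 0.5 hr 4 members passed without sham replicate 1, with Ifit2 and Oasl, and the call of Irf1 was lost without sham replicate 2 or 3 or unoperated replicate 1 or 2. No member passed at 2 hr (10.1% of probe sets did), and Ifit2 passed there without sham replicate 2 (-1.34, q-value 0.00392). Between the 4 sham times, Irf1 changed (F-test of limma, q-value 0.0314, 27.4% of probe sets), with means of 7.25 (SD 0.222) at 0, 7.09 (SD 0.0746) at 0.5, 8.03 (SD 0.580) at 2 and 7.15 (SD 0.126) at 6 hr (n = 3 each). The q-value was between 0.0501 and 0.0630 without any 1 of 8 of the 12 shams (replicate 1 at 0 hr, 2 and 3 at 0.5 hr, 1 and 3 at 2 hr and all 3 at 6 hr), and without sham replicate 3 at 0 hr Ifit3 and Mx1 passed too, 3 members in all.

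The other genes of the pathway were read from a list of 116 names, of which 105 had a probe set with 1 symbol and 75 were tested. Against the pooled shams no gene of the list passed at 0 hr in either lobe. At 0.5 hr 1 of the 75 rose in the reperfused lobes, Cxcl10, an interferon-induced chemokine, by 3.32 (SE 0.438, q-value 0.000407), and none passed in the non-ischemic lobe. At 2 hr 7 rose and 4 fell in the reperfused lobes, 11 of 75 beside 12.8% of all probe sets. Those that rose included the exonuclease Isg20 (0.76) and the chemokine Cxcl11 (0.67), and those that fell included the adaptor Mavs (-0.90) and the sensor Tlr3 (-0.87). In the non-ischemic lobe at 2 hr 9 rose and 3 fell, 12 of 75 beside 14.0% of all probe sets, with Herc6, a ligase for Isg15 in mice, at 2.08, the oligoadenylate synthetase Oas1i at 1.19, the kinase Eif2ak2 at 1.11 and Isg20 at 0.84. At 6 hr 15 of 75 rose in the reperfused lobes, beside 20.0% of all probe sets, and 1 fell. The genes that rose included 9 of the 35 tested antiviral effectors, with Eif2ak2 at 1.32, Isg20 at 1.12 and Xaf1 at 1.06. The gene that fell was Socs2, a feedback inhibitor of cytokine signaling, by 4.68 (SE 0.852, q-value 0.000895). At that time 8 rose and 7 fell in the non-ischemic lobe, 15 of 75 beside 25.2% of all probe sets, with Eif2ak2 at 1.18, the guanylate-binding protein Gbp7 at -1.02 and Socs2 at -4.54. Against the shams of the same time no gene of the list passed at 0 or 2 hr in either lobe. At 0.5 hr 4 rose and 5 fell in the reperfused and 2 rose and 8 fell in the non-ischemic lobes, beside 5.38%, 6.06%, 5.97% and 6.05% of all probe sets. At 6 hr 8 rose and 1 fell in the reperfused and 8 rose and 6 fell in the non-ischemic lobes, beside 11.7%, 7.06%, 8.98% and 6.24%. No gene of the list passed between the lobes at any time. That fit left out the animal, and no fit with it was made for the list. The median difference over the 75 genes was 0.18 in either lobe at 2 hr, beside -0.01 (reperfused) and -0.02 (non-ischemic) over all tested probe sets, and the median over the 10 members was 1.04 and 0.97. Members and list were chosen with earlier results of these data known, so these medians are a description.

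Across the 39 arrays, which share their groups and times, Irf7 and Mx1 followed each other most closely (Pearson r 0.93), then Irf7 and Oasl (0.88) and Oasl and Ifit3 (0.85). Stat2 had an r of -0.23 with the mean of the other 9 members, Irf1 0.40, Ifit2 0.43 and Ifit1 0.53, against 0.88 for Oasl and 0.87 for Irf7. Of the other tested genes with a symbol, the 10 most like the mean standardized profile of the members were Samd9 (r 0.84), Oasl2 (0.84), Slfn2 (0.84), Mx2 (0.82), Usp18 (0.82), Oas1b (0.80), Oas1a (0.78), Oas1k (0.78), Mnda (0.78) and Apol9a (0.78). Of these, 6 were on the pathway list. Mx2 ran from 8.21 to 13.44 and Usp18 from 6.86 to 11.41. These correlations are over 39 arrays and are given as a description.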

How the data were processed

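The authors processed the arrays with Affymetrix Expression Console 1.0 using SST-RMA, a form of robust multiarray averaging, and deposited intensity on a linear scale for 23409 probe sets of coding genes. The genome build of the array annotation is not given in the sources used here. Of these, 19787 carried 1 gene symbol, 410 several and 3212 none, by GEO's platform annotation updated through RefSeq names. All values were then taken as log2 without further normalization. On this scale 10762 probe sets had a mean under 5. Tests used the 11704 probe sets whose interquartile range over the operated animals' arrays was above its median (0.258), with limma 3.58.1 in R 4.3.3 on the compared groups, Benjamini-Hochberg adjustment and a threshold of 0.05. Python 3.11.15 was used for descriptions and figures. Tests were checked on simulated data. Precision is limited by 3 arrays per group. The labels name biological replicates, so replicates are animals.

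Lobes with the same number and time were taken as 1 animal: their deviations from the group means correlated at 0.142 to 0.843 in all 12 pairs, and the methods took both lobes from the same rats. Shams mostly correlated less with lobes (-0.23 to 0.178) and unoperated livers (-0.056 to 0.068) and were not paired. The ranges overlap at animal 1 of 6 hr (0.142), whose pairing rests on the methods. The members, the pathway list, the markers and the tests were chosen with earlier results of these data known. Named pathway genes are among the 6 per comparison with the largest change past the threshold. Alternatives were no variation filter, a filter on dim probe sets (mean log2 of at least 5), quantile normalization, a trended robust fit, a fit of all 39 arrays, shams of 0, 0.5 and 2 hr alone, a replicate block and leaving out each array.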

Additional observations from a re-analysis of the deposited data

Results flagged for a closer look

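The lobe difference of Irf1 pointed one way in all 3 animals at some times and the other way at another. Its mean difference, reperfused minus non-ischemic, was 0.99 at 0 hr and 1.28 at 0.5 hr, and -0.18 at 2 hr, where the 3 animals read -0.29, -0.01 and -0.23, so that animal 2 was nearly at 0. Stat2 showed the same kind of turn, with means of -0.26 at 0.5 hr and -0.45 at 2 hr, negative in all 3 animals each, and 0.21 at 6 hr, positive in all 3. No pair of times was tested by itself. Irf1 and Stat2 are named because, among the members and over all pairs of times, only they showed such a turn. The share of all tested probe sets with such a turn was not counted. Whether it is more common in the members than elsewhere was therefore not tested, and the turns are given as a description. In the test of a change over the 4 times, with the difference taken within animals, limma gave q-values of 0.447 for Irf1 and 0.163 for Stat2, so neither passed.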

How the results depend on the processing

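The 25 calls of members between 2 groups passed again in 369 of 444 refits under the alternatives, and none turned in direction. In many refits the direction could not turn. The filters, the trended robust fit, the fit of all 39 arrays and the replicate block leave the difference itself unchanged. Irf1 between the sham times, a test with no direction, passed in 7 of 17. Besides left-out arrays, calls were lost in the fit of all 39 arrays (8 calls, such as Ifit1 in the reperfused lobes at 2 hr, q-value 0.0681), without the variation filter (8), with the shams of 0, 0.5 and 2 hr alone (3), with the filter on dim probe sets (2), with the trended robust fit (1) and after quantile normalization (1, Irf1 in the reperfused lobes at 6 hr, q-value 0.0513). The counts of members called moved as follows. In a fit of all 39 arrays they were 3 for the reperfused lobes at 0 hr and 3 at 0.5 hr, 1 for the non-ischemic lobe at 0 hr and 1 at 6 hr (all against pooled shams), 2 for the reperfused lobes at 2 hr and 2 at 6 hr against the shams of their time, and 0, 0 and 1 for the shams of 0, 0.5 and 6 hr against unoperated livers. Without the variation filter they were 3 for the non-ischemic lobe at 2 hr against pooled shams, 1 and 0 for the reperfused lobes at 0.5 and 6 hr against the shams of their time, and 0 for the sham times. With the filter on dim probe sets they were 1 and 0 for the same lobes against the shams of their time, and 0 at 6 hr with the trended robust fit. The replicate block gave 1 call between the lobes at 0.5 hr, Irf1, and changed no other count of calls by over 1.5 times. Between lobes and shams or shams and unoperated livers the numbers are only names.

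Leaving out 1 array at a time gave counts against the pooled shams of 0 to 4, 0 to 2, 3 to 8 and 0 to 6 for the reperfused lobes at 0, 0.5, 2 and 6 hr, and of 0 to 0, 0 to 0, 1 to 6 and 0 to 1 for the non-ischemic lobe. Against the shams of their time they were 0 to 0, 1 to 2, 0 to 1 and 0 to 4 for the reperfused lobes and 0 to 0, 0 to 0, 0 to 1 and 0 to 1 for the non-ischemic lobe. For the shams against unoperated livers they were 0 to 1, 1 to 4, 0 to 1 and 2 to 4, for the sham times 0 to 3, and between the lobes 0 at each time. The mean over all probe sets of a gene could not differ from the main values, since each member has 1 probe set. Counts with an array left out are given without the share of all probe sets, so they describe dependence on single arrays alone. With 3 arrays per group, a group mean of Ifit1 rests in part on how many of its animals were low. Groups with no low animal still differed, with means of 7.60 (0.5 hr shams), 10.84 (2 hr non-ischemic) and 10.38 (2 hr reperfused).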
